A study of Mus musculus with 14 samples.

Results

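Expression of 10 ETS transcription factors other than Etv4 and Etv5 was examined in EpH4 and EpRas cells, and the main question was whether these factors change when Etv4 and Etv5 are lowered by siRNA. The 10 genes (Ets1, Ets2, Elf3, Elf4, Ehf, Elk1, Elk3, Etv3, Etv6 and Erf) were taken by symbol and were each found in both gene tables, among 23284 genes. EpH4 is a mouse mammary gland epithelial line grown in 10% serum, and EpRas is its H-Ras-transformed derivative (H-RasG12V), grown in 4% serum. Untransfected cells of both lines were left untreated or treated with TGF-β3 (1 ng/ml, 48 h), with 2 libraries for each of the 4 groups. A control siRNA (siNC), or siRNAs to Etv4 and Etv5 given together in 2 combinations (pair 1, Etv4_1 with Etv5_1, and pair 2, Etv4_2 with Etv5_2), were introduced into EpRas cells, each with no further treatment or followed by TGF-β. These 6 conditions have 1 library each. All EpRas cells are described as carrying the oncogene, and only 1 transformed derivative was used, so line and transformation cannot be told apart, nor can line and serum. The study describes its RNA-seq of the untransfected lines as performed on biological replicates, without saying how the cultures were separated, and p-values measure the spread between these libraries.

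ETS factors share a winged helix-turn-helix DNA-binding domain, the ETS domain, which contacts sites with a GGAA core. Many are endpoints of the Ras-ERK pathway. Ets1 and Ets2 are activators stimulated by ERK phosphorylation, and Elk1 and Elk3 are ternary complex factors that act with the serum response factor Srf. Elf3 and Ehf belong to the epithelium-specific branch of the family, and Elf4 is a relative of Elf1 first known from blood cells. Etv3, Etv6 and Erf are repressors, of which Erf leaves the nucleus when ERK phosphorylates it. Etv4 and Etv5 form the PEA3 group with Etv1.

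The siRNA Etv5_2 is shown because it is the only siRNA of the study whose sequence the labels print, with its seed (bases 2 to 8) in capitals:
Etv5_2: uUAAAUUCcaugccucggccagucc
All 25 bases were complementary to 2 of 3 protein-coding GENCODE transcripts of Etv5. In the transcripts of the 10 other ETS factors the longest complementary run was 7 to 9 bases, with 7 bases in Elf3 and 8 bases in Etv3. A complement of the seed occurred in transcripts of 4 of the 10 genes (Ets1, Elf4, Elk3 and Etv6) and in neither Elf3 nor Etv3. The sequences of the other 3 siRNAs were not analysed here.

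Promoter windows are shown for Elf3 and Etv3, the 2 genes with the lowest knockdown terms over the siRNA libraries. RefSeq windows (GRCm38.p6, from 250 bases before to 50 bases after the start) were matched for 8 of the 10 genes, and 2 ETS motifs were searched on both strands, CCGGAA (reverse complement TTCCGG) and AGGAAG (reverse complement CTTCCT). Matches are in capitals:
Elf3 (chr1:135258423-135258722, reverse strand): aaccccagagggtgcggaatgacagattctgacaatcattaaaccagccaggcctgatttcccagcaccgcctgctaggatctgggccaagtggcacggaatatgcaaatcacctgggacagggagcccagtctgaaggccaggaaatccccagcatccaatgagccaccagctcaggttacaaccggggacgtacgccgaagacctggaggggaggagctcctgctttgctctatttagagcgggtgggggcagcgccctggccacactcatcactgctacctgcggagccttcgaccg
Etv3 (chr3:87525328-87525627, forward strand): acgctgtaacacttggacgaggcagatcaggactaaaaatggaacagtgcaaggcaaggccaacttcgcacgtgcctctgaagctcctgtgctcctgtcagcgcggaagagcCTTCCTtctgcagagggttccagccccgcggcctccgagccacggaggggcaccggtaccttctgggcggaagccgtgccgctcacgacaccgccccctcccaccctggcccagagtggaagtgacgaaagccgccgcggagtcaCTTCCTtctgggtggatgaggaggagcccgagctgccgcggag
The Elf3 window held neither motif. The Etv3 window held AGGAAG 2 times on the strand opposite to the gene, at bases -138 to -133 and 8 to 13 counted from the start as base 1. Over the first windows of the 8 matched genes, 5 held AGGAAG (Elf4, Elk3, Etv3, Etv6 and Erf) and 0 held CCGGAA, compared with 35.4% and 14.9% of 32851 windows of the same length. A match is a description of letters and does not show binding.

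Levels are given in FPKM, fragments relative to exon length and scaled for library size, so that genes can be compared with each other within a table. The untransfected and the siRNA libraries are in tables that were normalized separately, and they were tested only within their own table. For genes whose values could be resolved into whole reads, the relative depth differed by up to 2.23 times between untransfected libraries and 1.74 times between siRNA libraries. Whole reads were recovered for Ets2, Elf4, Elk1, Elk3, Etv6 and Erf, with 55 to 1363 reads a library in the untransfected table and 132 to 2192 in the siRNA table, and for Ehf, with at most 10. They were not recovered for Ets1, Elf3 and Etv3. Both lines expressed keratins and Epcam. The 4 haematopoietic markers summed to 1.81 to 8.49 FPKM in EpH4, 4.50 to 8.27 in EpRas and 3.28 to 11.5 in siRNA libraries, mainly from Cd68 (up to 7.13 FPKM) and Csf1r (up to 6.23), while Cd3e was at most 0.305 and Ptprc at most 0.0267 FPKM. The 3 endothelial markers summed to at most 2.00 FPKM. The mouse Hras row (Hras1) did not separate the lines, at 100.8 and 103.0 FPKM in EpH4 and 126.5 and 85.9 in EpRas cells (log2 difference 0.03, limma adjusted p = 0.936, and 0.21, adjusted p = 0.522, with TGF-β), and whether reads of the introduced Ras are counted in it is not given in the sources used here. Of the 10 genes, 9 reached the 5 FPKM in at least 1 library that was required for testing, in both tables, and Ehf did not. Etv3 reached it only where it was highest, in EpH4 + TGF-β (5.26 and 5.30 FPKM) and siNC + TGF-β (5.31), so it entered the comparisons below through its high group, and the counts are also given over the other 8 genes where Etv3 is among those counted.

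In untransfected cells the 10 genes differed widely in level. Over the 8 libraries, Elk3 (mean 46.9 FPKM, range 33.2 to 53.4), Erf (37.3, 31.7 to 49.3), Ets2 (35.9, 18.0 to 57.2) and Ets1 (27.3, 16.2 to 38.9) were highest. Elf3 (10.2, 2.79 to 19.6), Elk1 (8.45, 4.59 to 14.5), Etv6 (7.37, 3.75 to 12.7), Elf4 (6.54, 4.85 to 7.70) and Etv3 (3.89, 2.49 to 5.30) followed. Ehf (0.172, 0 to 0.451) was lowest. The ranges of neighbours in this order overlapped, apart from those of Etv3 and Ehf, so most of this order is not resolved over all conditions. In untreated EpH4 cells alone, Elk3, at 42.4 and 44.4 FPKM, lay above both libraries of every other gene of the list. The order over the 6 siRNA libraries had the same 4 genes on top, with Elk3 at a mean of 41.0 FPKM, Erf at 36.3, Ets2 at 34.5 and Ets1 at 30.3.

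**Figure D1:**
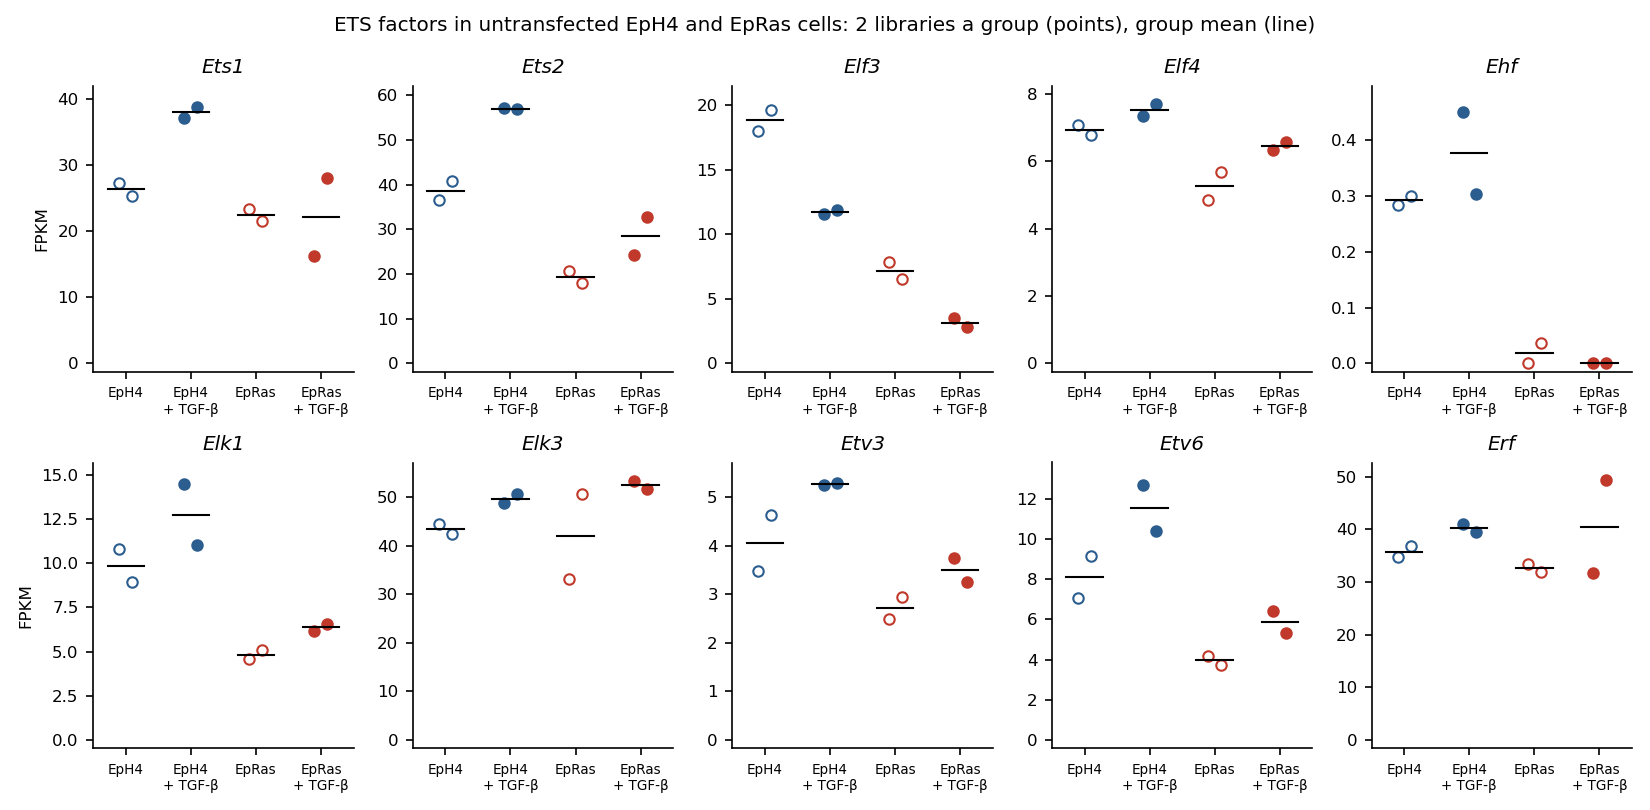
FPKM of the 10 ETS factors (1 panel each, y axis in FPKM with its own scale) in the 8 untransfected libraries; points are libraries (blue EpH4, red EpRas, filled with TGF-β) and lines are means of 2. Elf3 runs down from 18.8 FPKM in EpH4 cells to 3.16 in EpRas cells with TGF-β, and Ehf is at or near 0 in all 4 EpRas libraries.

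The comparison of EpRas with EpH4 cells asks how Ras transformation goes along with the ETS repertoire. Of the 9 genes tested, 4 were lower in EpRas cells without TGF-β (Ets2, Elf3, Elk1 and Etv6) and 0 were higher, where 9.11% and 8.45% of the 9100 genes tested were called lower and higher (limma on log2(FPKM + 1), adjusted p under 0.05 over all genes). With TGF-β the same 4 genes were lower and 0 were higher, beside 12.3% and 8.92% of all genes. Both EpRas libraries were below both EpH4 libraries for 8 of 9 genes without TGF-β (Elk3 was the exception) and for 7 of 9 with it (7 and 6 of the 8 genes other than Etv3), where 30.4% and 32.7% of all genes lay that way. Both were above for 0 genes without TGF-β and for 1, Elk3, with it, beside 30.6% and 30.2%. All 4 EpRas libraries were below all 4 EpH4 libraries for 5 genes (Ets2, Elf3, Elf4, Elk1 and Etv6; 15.1% of all genes) and above for 0 (12.7%). The median difference of the 9 genes was -0.44 without and -0.80 with TGF-β on the log2 scale (-0.60 and -0.84 without Etv3), and that of all genes was close to 0 (-0.003 and -0.008). Etv4 and Etv5 went the other way, with log2 differences of 0.78 (adjusted p = 0.0189) and 0.71 (adjusted p = 0.0182) without TGF-β in the same limma fit.

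Elf3, the epithelium-specific activator, lies at chr1:135253575-135258568 (mm10, reverse strand). It was 18.0 and 19.6 FPKM in EpH4 cells and 7.88 and 6.51 in EpRas cells. After TGF-β treatment these levels were 11.6 and 11.9 FPKM in EpH4 cells, and 3.54 and 2.79 in EpRas cells. All 4 EpRas libraries were below all 4 EpH4 libraries. The log2 difference was -1.28 (SE 0.17, limma adjusted p = 0.00259) without and -1.62 (SE 0.17, adjusted p = 0.000577) with TGF-β, and it passed the threshold without any 1 library, with adjusted p of at most 0.0250 and 0.0103. An antisense gene, Gm26642, shares exon sequence with Elf3 on the opposite strand, and the libraries were sequenced directionally.

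Ets2, the ERK-responsive activator, was at 36.5 and 40.8 FPKM in EpH4 cells and at 20.7 and 18.0 in EpRas cells. Under TGF-β, EpH4 cells had 57.2 and 56.9 FPKM and EpRas cells 24.2 and 32.9. The groups did not overlap in either condition. The log2 difference was -0.96 (SE 0.19, limma adjusted p = 0.0126) without and -0.99 (SE 0.19, adjusted p = 0.00878) with TGF-β.

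Elk1, the ternary complex factor, was at 8.93 to 10.8 FPKM in EpH4 cells and at 4.59 to 5.07 in EpRas cells. The treated libraries had 11.04 to 14.5 FPKM in EpH4 cells and 6.17 to 6.56 in EpRas cells. The log2 difference was -0.89 in both conditions (SE 0.18, limma adjusted p = 0.0151 without and 0.0119 with TGF-β). An exon of Uxt overlaps Elk1 exon sequence on the same strand in the annotation, and how reads in that overlap were assigned was not tested.

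Etv6, the repressor, was at 7.06 to 9.14 FPKM in EpH4 cells and at 3.75 to 4.20 in EpRas cells. Under TGF-β the ranges were 10.4 to 12.7 FPKM and 5.32 to 6.40. The log2 difference was -0.86 (SE 0.19, limma adjusted p = 0.0199) without and -0.87 (SE 0.19, adjusted p = 0.0157) with TGF-β. The calls of Ets2, Elk1 and Etv6 without TGF-β were each lost when either EpRas library was left out, and Elk1 also without EpH4 replicate 1, Ets2 and Etv6 also without EpH4 replicate 2 (highest adjusted p = 0.0792, 0.0889 and 0.111). With TGF-β they were lost without EpH4 + TGF-β replicate 1 (adjusted p = 0.0702, 0.107 and 0.130), Ets2 and Etv6 also without replicate 2 of that group, and their sign did not change. In untreated cells the calls of Elk1 and of Etv6 were also lost, and one of Elf4 gained, when FPKM were compared by the Tukey-Kramer method. That method adjusts p over the groups of each gene and not over genes.

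The other tested members did not pass. Etv3, a repressor, was at 3.48 to 4.63 FPKM in EpH4 cells and 2.49 to 2.95 in EpRas cells when untreated, and 5.26 to 5.30 and 3.26 to 3.74 FPKM when treated with TGF-β. Its log2 differences were -0.44 (limma adjusted p = 0.125) and -0.48 (adjusted p = 0.0863). The groups did not overlap, which is a description only, since Etv3 passed the filter through EpH4 + TGF-β alone. Ets1 was at 25.4 to 27.4 FPKM in EpH4 cells and 21.5 to 23.4 in EpRas cells without TGF-β. After TGF-β the EpH4 libraries had 37.2 to 38.9 FPKM and the EpRas libraries 16.2 and 28.1, and the log2 difference of -0.80 (95% interval -1.37 to -0.23, adjusted p = 0.0548) lay just outside the threshold. That value rests on the EpRas + TGF-β pair, since it was -0.42 (adjusted p = 0.107) without replicate 1 and -1.18 (adjusted p = 0.00491) without replicate 2. It also passed with a pseudocount of 5 FPKM and with rescaled libraries (adjusted p = 0.0480 and 0.0484). Elf4 differed by -0.35 and -0.20 on the log2 scale (adjusted p = 0.147 and 0.370). Elk3, with intervals of -0.56 to 0.40 and -0.40 to 0.56, and Erf, with intervals of -0.62 to 0.37 and -0.52 to 0.48, had the differences closest to 0.

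Ehf, the other epithelium-specific factor, stood on few reads. It had 7, 10, 8 and 8 reads in the 4 EpH4 libraries and 0, 1, 0 and 0 in the 4 EpRas libraries. Per unit of depth it was 26.0 times as abundant in EpH4 cells (exact 95% interval 4.35 to 1057, counting error only). Its level never passed 0.451 FPKM, and a count of 0 in EpRas libraries allows up to 0.142 to 0.2003 FPKM.

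Several cell identity markers moved with the line. The 10 epithelial markers summed to 5932 to 11022 FPKM in EpH4 libraries and 2725 to 5613 in EpRas libraries, the 6 mesenchymal ones to 243 to 587 and 1284 to 1882, and Vim went from 0.769 to 1.88 FPKM in EpH4 cells to 915 to 1156 in EpRas cells. Of the 10 epithelial markers, 6 were lower in all 4 EpRas than in all 4 EpH4 libraries (Epcam, Cdh1, Krt7, Krt14, Cldn3 and Cldn4), while Krt8 and Krt18 overlapped, Krt5 was at or near 0, and Krt19 went the other way, from 0 in EpH4 to 17.1 to 37.4 FPKM in EpRas libraries. Of the 6 mesenchymal ones, 4 were higher in all EpRas libraries (Vim, Cdh2, Zeb1 and Zeb2). The part of these markers in the differences of Elf3, Ehf and the others was not tested. In bulk RNA, fewer cells that express a gene and less of its RNA per cell cannot be told apart.

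**Figure D2:**
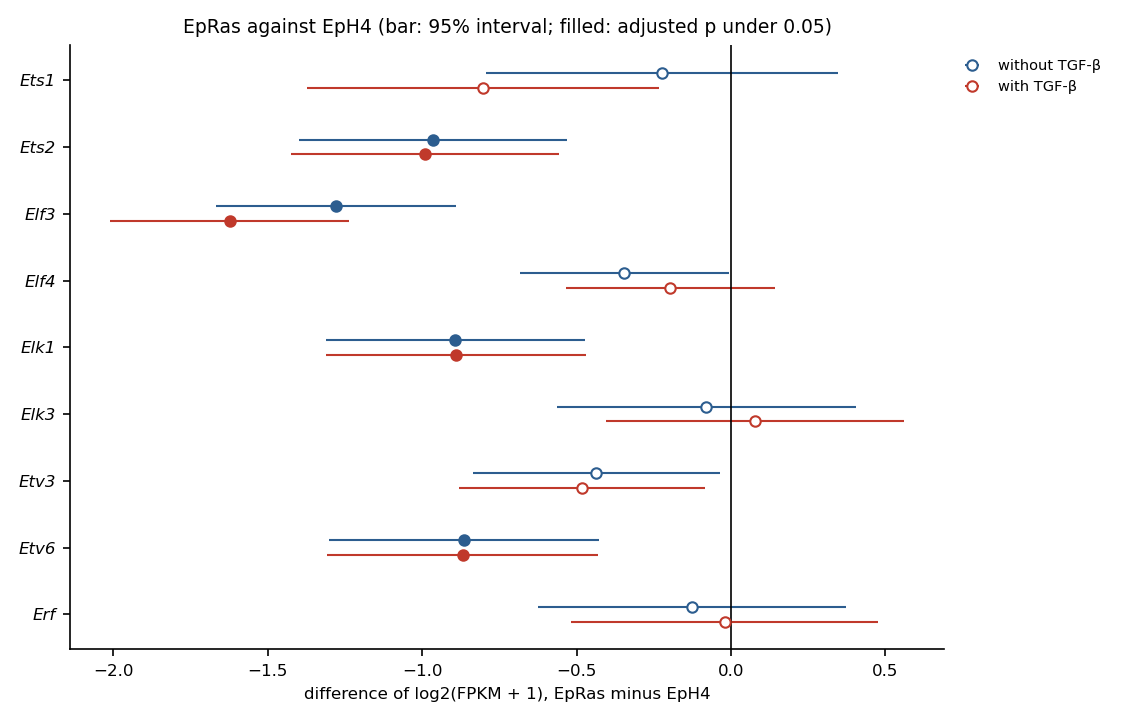
Difference of log2(FPKM + 1) between EpRas and EpH4 cells (x axis) for the 9 tested ETS factors without (blue) and with TGF-β (red); bars are 95% limma intervals and filled points have an adjusted p under 0.05. Ets2, Elf3, Elk1 and Etv6 are filled on the left in both conditions, and 0 points are filled on the right.

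The comparison with TGF-β asks how the ETS genes respond to it in each line. Elf3 was the only one of the 9 genes to pass the test, in EpRas cells, where it was lower. In EpH4 cells 0 of 9 genes passed in limma, and 3 at an unadjusted p under 0.05 (Ets2, Elf3 and Etv6). Of all genes, 9.4% and 23.9% passed. The Tukey-Kramer test on FPKM, adjusted over the groups of each gene but not over genes, called 2 (Ets2 and Elf3). It was run on the members, Etv4 and Etv5 only, so no share of all genes stands beside it. In EpRas cells 1 of 9 passed, Elf3, which fell by 0.98 on the log2 scale (SE 0.17, limma adjusted p = 0.0212), where 1.92% of all genes fell and 1.9% rose. In EpH4 cells its log2 difference was -0.63 (SE 0.17, adjusted p = 0.0574), and in both lines both treated libraries were below both untreated ones. It passed in EpH4 cells without either EpRas + TGF-β library (adjusted p = 0.0385). The call in EpRas cells rests on several libraries: it was lost without either library of untreated EpRas cells, of TGF-β-treated EpH4 cells, or EpRas + TGF-β replicate 2 (adjusted p of up to 0.155), in a fit of the EpRas libraries alone (adjusted p = 0.187), and with the replicate number as a block (adjusted p = 0.0535).

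For 8 of 9 genes in EpH4 cells (30.2% of all genes) and 6 of 9 in EpRas cells (18.5%), or 7 and 5 of the 8 genes other than Etv3, the pair of treated libraries was above the untreated pair, and it was below for 1, Elf3, in each line (30.4% and 20.9%). Ets2 and Etv6 were among the higher ones in both lines. The log2 differences of Ets2 were 0.55 in EpH4 cells (limma adjusted p = 0.120) and 0.53 in EpRas cells (adjusted p = 0.221), and those of Etv6 were 0.47 (adjusted p = 0.182) and 0.46 (adjusted p = 0.292). Ets1 differed by 0.51 in EpH4 cells (limma adjusted p = 0.253, and 0.0492 without either EpRas + TGF-β library) and by -0.07 in EpRas cells (adjusted p = 0.935), where its treated libraries lay on both sides of the untreated ones. The difference between the lines in the TGF-β effect passed for 0 of 9 genes (0 also at an unadjusted p under 0.05), beside 0.802% and 10.9% of all genes, and for Ets1 it was -0.58 (95% interval -1.38 to 0.23, limma adjusted p = 0.594).

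Both targets were lower in the siRNA libraries. Etv4 was at 57.4 FPKM with siNC and at 11.6 and 27.9 with pairs 1 and 2, which is 20.2% and 48.5% of siNC. In the TGF-β-treated libraries it was 64.3, 12.6 and 18.9 FPKM (19.6% and 29.4%). Etv5 was at 8.85, 1.61 and 1.26 FPKM without and 5.34, 1.24 and 1.20 with TGF-β (14.2% to 23.2% of siNC). Pair 1 thus left less Etv4 than pair 2 in both conditions. The summed FPKM of Etv4 and Etv5 was 24.8% and 22.1% of that of all ETS genes listed in the siNC libraries and 5.87% to 11.7% in the 4 knockdown libraries.

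Most ratios of the other ETS factors to siNC lay within 1.5-fold, 15 of 18 without and 14 of 18 with TGF-β (each gene with each pair; 13 and 14 of 16 without Etv3), where 70.7% and 73.3% of the ratios of all genes did. Against the siNC library of the same TGF-β condition, the 9 tested genes were at 61.3% to 141% without TGF-β and at 42.2% to 135% with it. The median log2 ratio (mean of the pairs over siNC) was -0.11 without and -0.20 with TGF-β, beside 0.02 and 0.05 for all genes. With 1 library for each condition, these ratios have no replicate check. Between each pair and siNC, the deposited FPKM intervals of these 9 genes overlapped in all 18 comparisons of either condition. They are wide and also overlapped for the target Etv5 with TGF-β, so overlap does not show an unchanged level. The summed level of the 10 genes was 160.7 FPKM with siNC and 151.0 and 166.4 with the pairs, and 206.7 FPKM with siNC and TGF-β against 178.4 and 203.1.

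By size alone, 0 of 9 genes were 2-fold higher or lower without TGF-β, where 4.5% of all genes were higher and 4.57% lower. With TGF-β 1 of 9, Elf3, was 2-fold lower and 0 were higher, beside 4.72% and 3.67% of all genes. The call of Elf3 was lost on ratios of FPKM + 1 and with pair 2 alone. At least 1.5-fold below siNC with both pairs were 1 of 9 without TGF-β (Elf3, 8.46% of all genes) and 2 of 9 with it (Elf3 and Etv3, 7.79%), and on FPKM + 1 these became 0 and 1, while 0 were 1.5-fold above with both pairs in either condition (7.97% and 6.66%). All 4 knockdown libraries lay below both siNC libraries for 1 of 9, Etv3 (13.7% of all genes), and above for 0 (15.8%). Etv3 is counted here through its siNC + TGF-β level, the only one of its 6 values to reach 5 FPKM, and without it the last 2 counts of lower genes were 1 of 8 (Elf3) and 0 of 8. No test compared these counts with those of all genes.

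An additive limma fit over the 6 libraries treated the 2 siRNA pairs as 1 knockdown condition. Libraries of different pairs and of both TGF-β conditions stood in for replicates there. It called 0 of 9 genes for the knockdown (1 at an unadjusted p under 0.05, Elf3), where 2.12% and 22.7% of 9094 genes passed. In that fit Etv5 passed (log2 difference -1.77, adjusted p = 0.0205) and Etv4 itself did not (-1.80, adjusted p = 0.0606). Neither call is firm: Etv5 passed in only 1 of the 6 fits that left out a library, that without untreated pair 2 (adjusted p 0.0464 to 0.184 over the 6), and not with pair 2 only (0.174), while Etv4 passed in that same fit (0.0464), with a pseudocount of 5 FPKM (0.0474) and with pair 1 only (0.0453). A missed threshold does not show that a level was unchanged, and the 95% intervals give what the fit allows. A term for the difference between the knockdown effect with and without TGF-β, added after seeing the data and leaving 2 residual degrees of freedom, passed for 0 of 9 genes (0 also at an unadjusted p under 0.05), beside 0.209% and 4.65% of all genes.

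**Figure D3:**
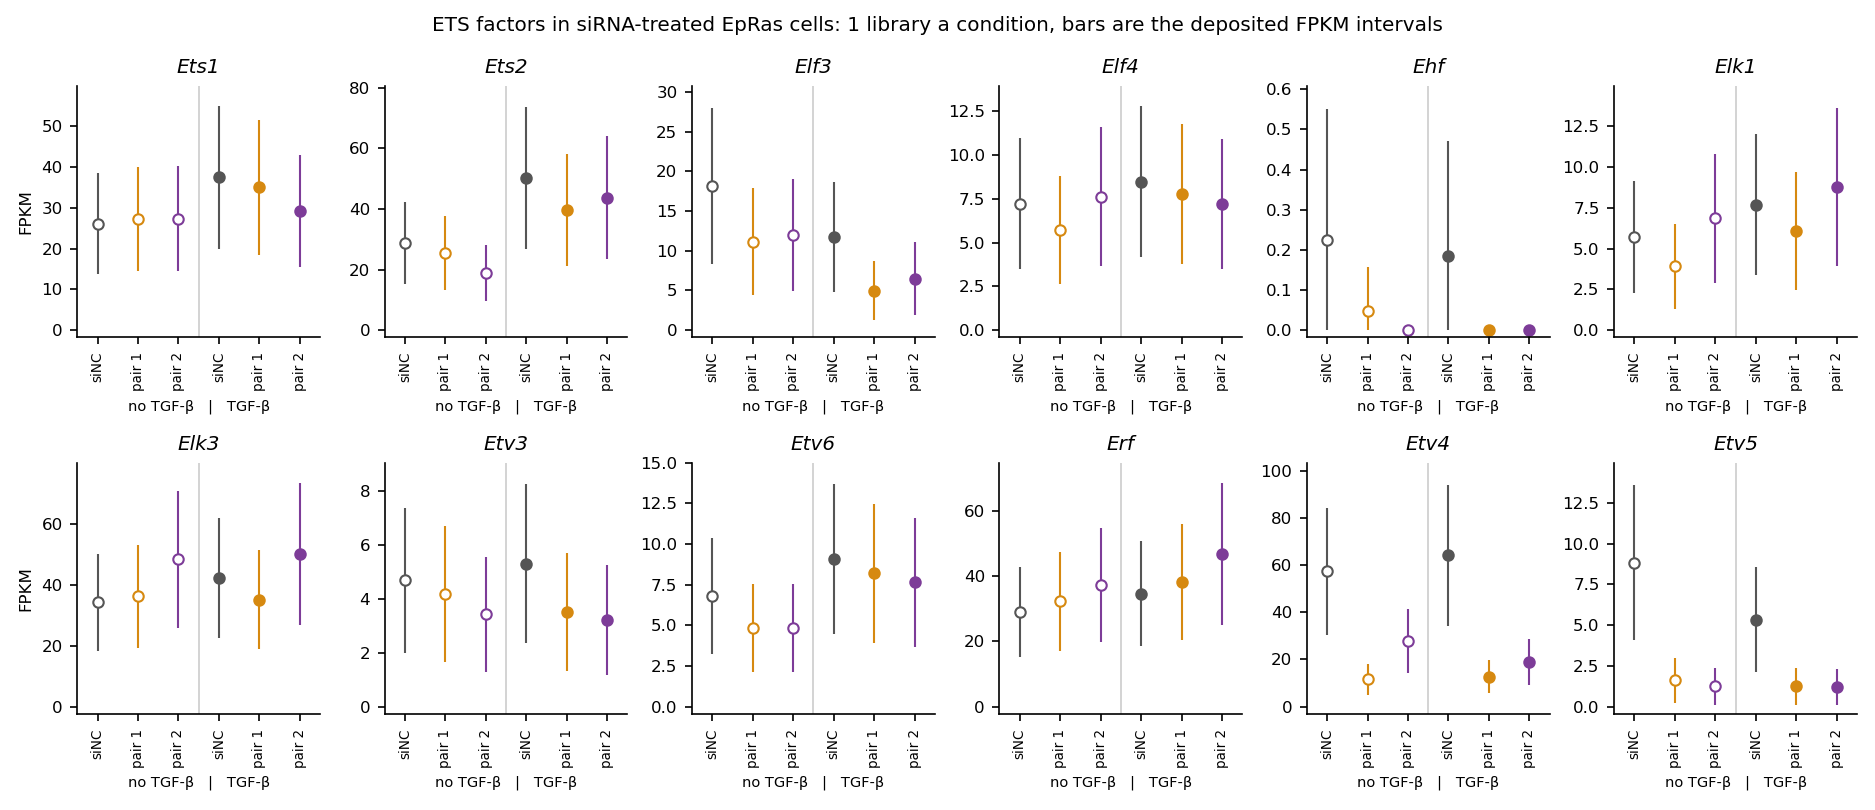
FPKM of the 10 ETS factors and of Etv4 and Etv5 (1 panel each, y axis in FPKM with its own scale) in the 6 siRNA libraries; points are libraries (grey siNC, orange pair 1, purple pair 2, filled with TGF-β) and bars are the FPKM intervals deposited with them. Elf3 is below its siNC library with both pairs in both conditions, while Elk1 and Elk3 with TGF-β lie on both sides of it.

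By the mean of the pairs, Elf3 was lowest relative to siNC among the 9 tested genes in both conditions, although with pair 2 without TGF-β Ets2 was as low (65.7% beside 66.1%). It was at 18.1 FPKM with siNC, 11.1 with pair 1 and 12.0 with pair 2, and with TGF-β at 11.7, 4.94 and 6.48 FPKM. Both pairs were below siNC in each condition, at 61.3% and 66.1% without and 42.2% and 55.4% with TGF-β. Untransfected EpRas cells, normalized separately, had 7.88 and 6.51 FPKM without and 3.54 and 2.79 with TGF-β. Both the siNC and the knockdown libraries lay above these, and no test compared them. The knockdown term was -0.77 on the log2 scale (95% interval -1.19 to -0.35, limma adjusted p = 0.0796), and over the alternatives the adjusted p ran from 0.0724 to 0.333. The knockdown effect with TGF-β minus that without it was -0.32 (95% interval -1.20 to 0.56, limma adjusted p = 0.982). Within each siRNA treatment Elf3 was also lower with TGF-β, at a log2 ratio of -0.63 with siNC, -1.17 with pair 1 and -0.89 with pair 2. The TGF-β term over the 6 libraries was -0.81 (SE 0.16, limma adjusted p = 0.0728).

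The epithelial and mesenchymal markers in the same libraries are set beside this. The 10 epithelial markers summed to 5081 FPKM with siNC and 4808 and 5338 with the pairs, and with TGF-β to 5811, 6185 and 6047. Krt7, Krt8 and Krt18 (1083 to 2197 FPKM over the 6 libraries) make up most of this sum. The list did not move one way: 3 markers were below siNC with both pairs and 3 above without TGF-β, and 5 were below (Epcam, Cdh1, Krt7, Krt5 and Cldn4) and 4 above (Krt8, Krt18, Krt14 and Cldn3) with it. With TGF-β, Cdh1, which encodes E-cadherin, was at 68.3 FPKM with siNC and 53.4 and 39.5 with the pairs, and Epcam at 221.5, 155.5 and 153.0. Krt8 was at 1471, 2197 and 1896 FPKM in the same libraries, and Krt14 at 140.1, 214.0 and 244.2. The 6 mesenchymal markers summed to 804, 991 and 1043 FPKM without and 1163, 2268 and 1768 with TGF-β. The 4 haematopoietic markers summed to 6.48, 3.28 and 5.00 FPKM without and 11.5, 5.10 and 6.99 with TGF-β, also lower with both pairs than with siNC, and the 3 endothelial ones to 0.585, 0.0262 and 0.0347 without and 2.00, 0.0774 and 0.229 with it. The part of these lists in the Elf3 ratios was not tested.

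Ehf had 7 reads with siNC and 10 with siNC and TGF-β, and 2, 0, 0 and 0 reads in the 4 knockdown libraries. The siNC libraries together held 16.3 times as many reads per unit of depth (exact 95% interval 3.86 to 145, counting error only). A count of 0 allows up to 0.0700 to 0.0780 FPKM there, and siNC was at 0.225 and 0.185 FPKM, so the comparison is one of traces.

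Of the repressors, Etv3 was at 4.69 and 5.31 FPKM with siNC without and with TGF-β, at 4.19 and 3.52 with pair 1 and at 3.43 and 3.22 with pair 2. All 4 knockdown values lay below both siNC values, with the limit of the filter given above. The knockdown term was -0.39 (SE 0.16, limma adjusted p = 0.221). Etv6 was at 6.80 FPKM with siNC and at 4.82 and 4.83 with the pairs, close to 71% of siNC with either (70.9% and 71.0%). The TGF-β-treated libraries had 9.10, 8.19 and 7.64 FPKM, and the knockdown term was -0.30 (95% interval -0.66 to 0.06, limma adjusted p = 0.282). Erf was the only one of the 9 genes above siNC in every pair and condition, at 29.0, 32.3 and 37.3 FPKM without and 34.6, 38.1 and 46.8 FPKM with TGF-β. Its read ratios were 1.11 (1.01 to 1.23) and 1.29 (1.17 to 1.41) without TGF-β, and 1.10 (1.02 to 1.19) and 1.35 (1.25 to 1.45) with it. These are exact 95% intervals of counting error only, and the deposited FPKM intervals overlapped that of siNC in each case. The knockdown term of Erf was 0.26 (95% interval -0.13 to 0.66, limma adjusted p = 0.376).

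The ternary complex factors Elk1 and Elk3 stood at lower levels with pair 1 than with pair 2, each library being compared without a replicate. Elk3 was at 34.2 FPKM with siNC, 36.2 with pair 1 and 48.3 with pair 2, and with TGF-β at 42.0, 35.1 and 50.1 FPKM. Its read ratio with TGF-β was 0.834 (0.780 to 0.892) for pair 1 and 1.19 (1.12 to 1.27) for pair 2, with exact 95% intervals that cover counting error between single libraries only. Elk1 was at 5.71, 3.91 and 6.86 FPKM without and 7.70, 6.07 and 8.78 with TGF-β, with read ratios of 0.684 (0.536 to 0.874) and 1.20 (0.968 to 1.495) without TGF-β. This order held in each condition for both genes, and the signs of the pairs differed, apart from Elk3 without TGF-β, so the knockdown terms of 0.14 for Elk3 (95% interval -0.39 to 0.66) and -0.09 for Elk1 (-0.68 to 0.50) average over unlike libraries. Their partner Srf had 34.2, 40.3 and 38.6 FPKM in the untreated and 29.5, 56.7 and 66.4 in the treated libraries, with a knockdown term of 0.62 (limma adjusted p = 0.181). Elk4, a relative of Elk1 and Elk3, was at 4.58, 3.80 and 4.24 FPKM without and 3.88, 5.29 and 3.26 with TGF-β. With TGF-β the order of its pairs was thus the opposite.

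Among the activators, Ets2 was at 28.8 FPKM with siNC, 25.5 with pair 1 and 18.9 with pair 2, and with TGF-β at 50.2, 39.7 and 43.7 FPKM. All 4 ratios were below 1, between 0.657 and 0.886 in reads, and the knockdown term was -0.32 (95% interval -0.74 to 0.11, limma adjusted p = 0.332). Ets2 was higher with TGF-β under each siRNA treatment, and its TGF-β term was 0.86 (SE 0.17, limma adjusted p = 0.0614), while that of Etv6 was 0.53 (adjusted p = 0.124). Ets1 was at 26.0 FPKM with siNC and 27.2 and 27.3 with the pairs, and with TGF-β at 37.4, 35.0 and 29.2 FPKM. Its knockdown term was -0.08 (95% interval -0.47 to 0.31, limma adjusted p = 0.794). Elf4 was at 7.22, 5.72 and 7.63 FPKM without and 8.48, 7.78 and 7.19 with TGF-β, with a knockdown term of -0.14 (95% interval -0.54 to 0.26). The TGF-β term passed for 0 of 9 genes in limma (3 at an unadjusted p under 0.05: Ets2, Elf3 and Etv6), where 2.5% and 17.8% of all genes passed.

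**Figure D4:**
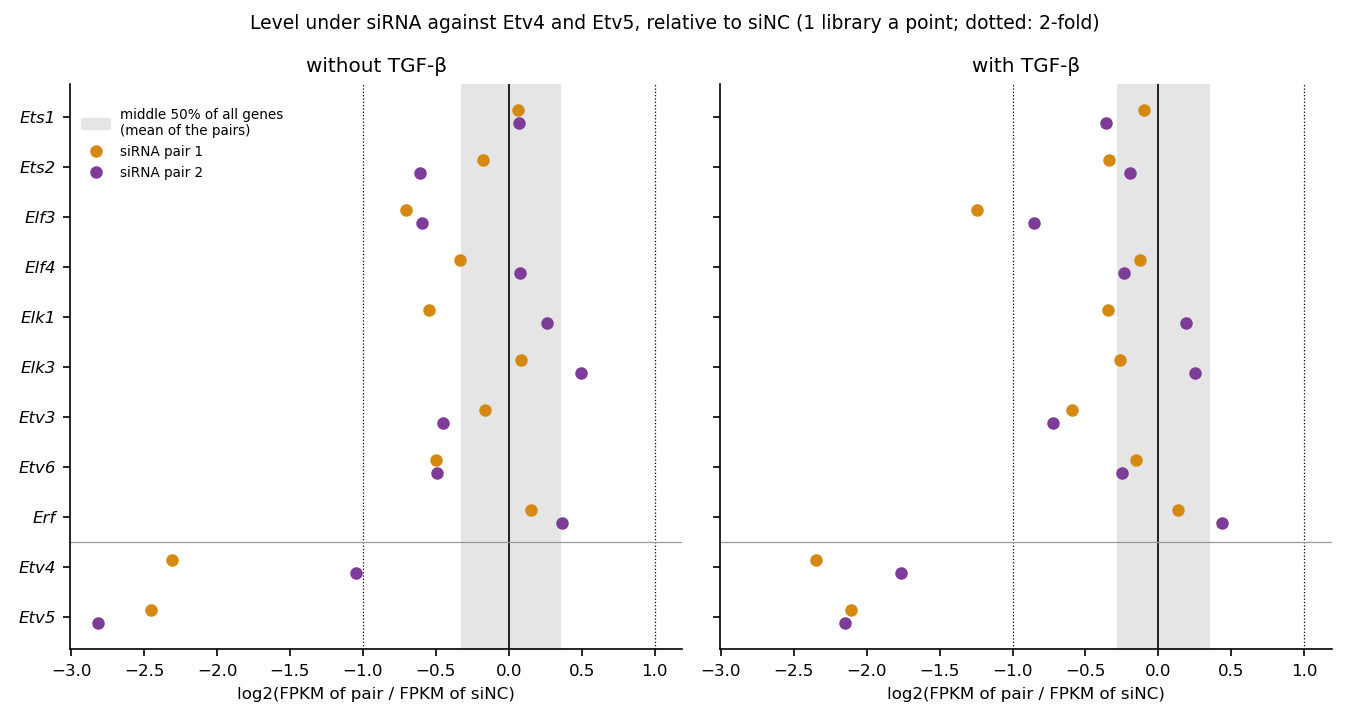
Log2 ratio of FPKM under each siRNA pair to siNC (x axis) for the 9 tested ETS factors and the targets Etv4 and Etv5, without (left) and with TGF-β (right). Each point is 1 library over 1 siNC library, and dotted lines mark 2-fold. The grey band holds the middle 50% of all genes by the mean of the pairs, while points are single pairs. ETS points lie inside and on both sides of the band, Elf3 lies to its left in both panels, and Etv4 and Etv5 lie at or beyond the left dotted line.

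Likeness was described by the Pearson correlation of log2(FPKM + 1) over the 6 siRNA libraries, which share cell line, preparation and the TGF-β contrast. Within the family, the gene most like Ets2 was Etv6 (r = 0.93, and the reverse), that most like Elf3 was Elf1 (0.91), that most like Etv3 was Etv5 (0.85), and that most like Erf was Gabpa (0.83). Ets1 went with Etv6 (0.78), Elk3 with Gabpa (0.76) and Elf4 with Elk1 (0.76, and the reverse). Over all genes tested, the 2 genes closest to Elk3 were Zfp346 and Tmem138 (r = 1.00 and 0.99 after rounding), those closest to Erf were Col5a1 and 1700019E19Rik (both 1.00) and those closest to Ets2 were Eif2b1 and Mark4 (both 0.99).

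Of 14 further family members, 3 passed the filter in the untransfected table and 4 in the siRNA table, and 0 of them were called in any of the limma comparisons. Elf2 was at 16.3 FPKM with siNC and 17.9 and 22.2 with the pairs, and Gabpa at 9.57, 12.0 and 16.8 FPKM, with knockdown terms of 0.33 (limma adjusted p = 0.282) and 0.47 (adjusted p = 0.211). Elf1 was at 8.15, 6.71 and 7.51 FPKM. All 4 knockdown libraries were above both siNC libraries for Elf2 and Gabpa (15.8% of all genes) and below them for Elf1 (13.7%). Etv1, the third PEA3 gene, stayed at or below 1.54 FPKM in the siRNA libraries, at 1.54 with siNC and 1.27 and 1.48 with the pairs, and with TGF-β at 1.04, 0.497 and 1.30. Erg, Fli1, Fev and Spic were listed at 0 in all 8 untransfected libraries.

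Of 13 partners and regulators of ETS factors, 12 were tested. Dusp6, the ERK phosphatase, was the only one called in a limma comparison, higher in EpRas than in EpH4 cells by 1.20 without TGF-β (adjusted p = 0.00407) and by 2.44 with it (adjusted p = 0.000108) on the log2 scale. In the siRNA libraries Dusp6 was at 26.8, 12.8 and 19.4 FPKM without and 28.5, 14.6 and 16.4 with TGF-β (knockdown term -0.78, limma adjusted p = 0.101). Cic, a repressor of the PEA3 genes, was at 15.1, 29.5 and 37.7 FPKM without and 15.9, 23.4 and 24.3 with TGF-β (knockdown term 0.83, limma adjusted p = 0.0869). Hras, listed as Hras1, had 149, 114 and 101 FPKM in the untreated and 104, 103 and 108 in the treated libraries. Mapk3, which encodes ERK1, had 122, 87.8 and 128 FPKM without and 103, 75.6 and 89.98 with TGF-β. By the rules of size, Cic was 2-fold higher without TGF-β (4.5% of all genes) and Srf 2-fold higher with it (3.67%). At least 1.5-fold above siNC with both pairs were Cic and Det1 without TGF-β (7.97% of all genes) and Srf, Gabpb1, Gabpb2 and Det1 with it (6.66%), and Dusp6 was as far below with TGF-β (7.79%). Det1, part of a ubiquitin ligase for ETS factors, was at 4.54, 7.72 and 7.25 FPKM without and 5.95, 9.44 and 11.1 with TGF-β (knockdown term 0.65, limma adjusted p = 0.0808).

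**Figure D5:**
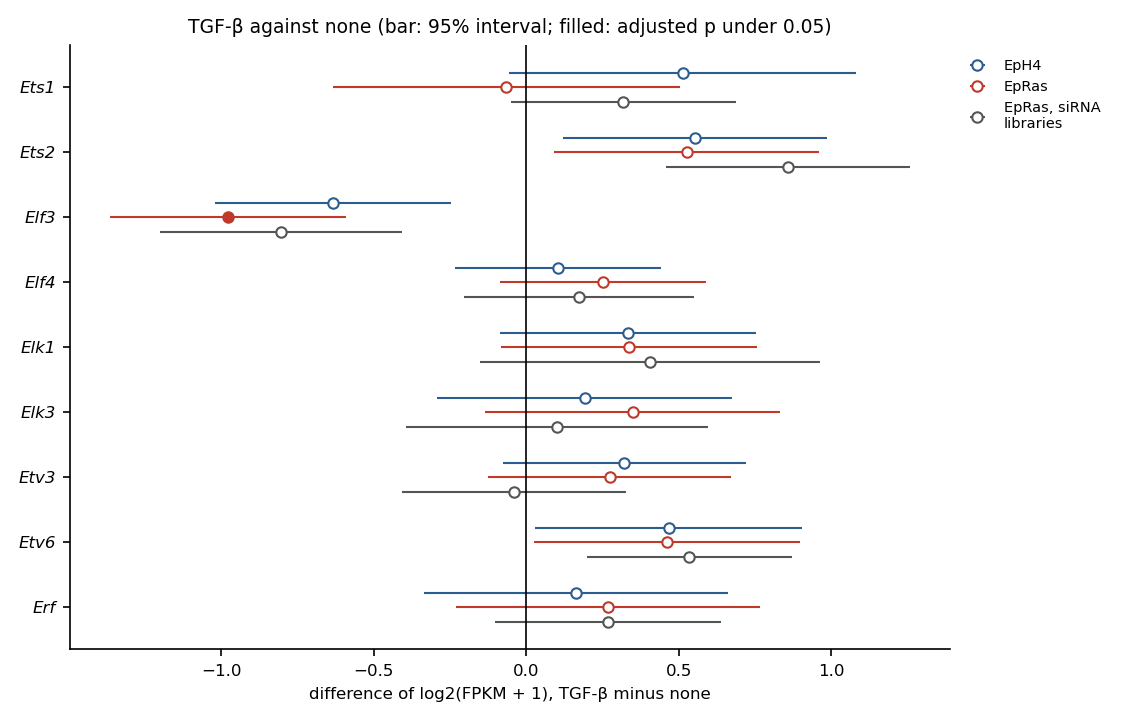
Difference of log2(FPKM + 1) between TGF-β and no TGF-β (x axis) for the 9 tested ETS factors in EpH4 cells (blue), EpRas cells (red) and the 6 siRNA libraries (grey); bars are 95% limma intervals and the filled point has an adjusted p under 0.05. Elf3 lies on the left in all 3 fits, and Ets2 and Etv6 lie on the right in all 3.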

How the data were processed

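mRNA of EpH4 and EpRas cells was sequenced directionally on the Ion Proton in 14 libraries. Per the submitters' processing notes, reads were aligned to mm10 with TopHat2 2.0.11 and Bowtie2 2.2.2.2 and quantified with Cuffdiff of Cufflinks 2.2.0. The authors deposited 2 tables of FPKM with an interval for each value. Cuffdiff scaling is already in the values, and the paper does not name the scaling method. The median ratio of a library to the gene means, used for rescaling, was 0.950 to 0.998 over the 14 libraries. Depth is not given, so relative depth and whole reads were recovered from the steps of low values (tolerance 0.005), and intervals of read ratios are exact binomial (Clopper-Pearson, 95%).

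Genes with a maximum of at least 5 FPKM were tested with limma 3.58.1 (R 4.3.3) on log2(FPKM + 1), adjusted by Benjamini-Hochberg over all genes tested, with 1 mean per group (untransfected), or with terms for knockdown and TGF-β (siRNA). Fold changes on this scale understate changes of low genes. The fit was tested on simulated data. Genes without an OK status in the tables (3 and 2 genes) were left out. Ratios to siNC, the 2-fold and 1.5-fold rules and the overlap of libraries carry no test. All 10 members, Etv4 and Etv5 are named, and from 2 lists (14 further ETS genes, 13 partners) those past a test or highest by mean FPKM. Genes named beyond that rule (Etv1, Cic, Det1, Gabpb1, Gabpb2, Erg, Fli1, Fev, Spic) were chosen after their values were seen. The members and lists were chosen with earlier results of these data known. Alternatives were other pseudocounts, filters, scaling, tests and left-out libraries. Positions are from GENCODE on GRCm38 and windows from RefSeq GRCm38.p6. Python 3.11.15 with pandas 2.3.3 and scipy 1.17.1 was used. No column of sample values was left unused (0).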

Additional observations from a re-analysis of the deposited data

Results flagged for a closer look

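Ets1 stood out because its ratio to siNC had opposite signs in the 2 conditions: the mean of the siRNA pairs was at 104.6% of siNC without TGF-β (both pairs above siNC) and at 85.7% with TGF-β (both pairs below). In a limma fit with an interaction, added after seeing the data, the knockdown effect with TGF-β minus that without it was -0.28 (95% interval -1.09 to 0.52, adjusted p = 0.982), which did not pass. The pairs stood in for replicates there, with 1 siNC library in each condition.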

How the results depend on the processing

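Each result was recomputed with pseudocounts of 0.1 and 5 FPKM, without a filter, with rescaled libraries, with the replicate number as a block, with only the 2 groups compared, with the Tukey-Kramer test on FPKM, with 1 siRNA pair, and without each library. A fit with an interaction of knockdown and TGF-β, added after seeing the data, also called 0 members for the knockdown (Elf3 adjusted p = 0.120). Whether replicate numbers mark pairs is not given in the labels. Correlations of replicate differences between groups ran from -0.35 to 0.08, which does not decide it. With the replicate block, 0 of 9 genes passed for TGF-β in EpRas cells instead of 1, Elf3, and the block changed no other number of members called by more than 1.5 times. For TGF-β in EpH4 cells, 1 gene passed with a pseudocount of 5 FPKM, without a filter, or with only the 2 groups compared, and 2 with the Tukey-Kramer test, instead of 0. Between the lines without TGF-β, that test called 3 members in place of 4, without Elk1 and Etv6 and with Elf4. Its p-values were adjusted over the groups of each gene and not over genes. For TGF-β in EpRas cells, 0 passed with only the 2 groups compared. For the TGF-β term in the siRNA libraries, 1 passed with a pseudocount of 5 FPKM (Ets2). With 1 library left out, 1 to 4 members passed between the lines without TGF-β and 1 to 5 with it, 0 to 2 for TGF-β in EpH4 cells, 0 to 1 in EpRas cells, and 0 for the knockdown. Where this left 1 library in a group, that library is assumed to vary like the others. By size, a 1.5-fold rule on the mean of the pairs called 1 gene without (Elf3) and 2 with TGF-β (Elf3 and Etv3). The 2-fold rule called 0 and 1. Etv3 again counts only through its siNC + TGF-β level. Ratios of FPKM + 1 called 0 in place of 1 for both pairs without TGF-β, 0 in place of 1 for 2-fold with TGF-β, and 1 in place of 2 for both pairs with TGF-β. Pair 2 alone called 0 with TGF-β at 2-fold. Shares of all genes are not given for these alternatives.

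Signs turned for some differences that had not passed. Erf between the lines with TGF-β was 0.012 by the Tukey-Kramer test. The knockdown term of Elk1 was 0.20 with pair 2 only, and that of Elk3 was -0.087 with pair 1 only. With 1 library left out, the values ran from -0.38 to 0.22 for Elk3 between the lines without TGF-β, from -0.33 to 0.29 for Erf with it, from -0.042 to 0.58 for Erf and from -0.45 to 0.31 for Ets1 for TGF-β in EpRas cells. They ran from -0.23 to 0.061 for Elk1, from -0.0044 to 0.28 for Elk3 and from -0.22 to 0.063 for Ets1 for the knockdown, and from -0.017 to 0.27 for Elk3 and from -0.14 to 0.052 for Etv3 for TGF-β in the siRNA libraries. The cause of these shifts was not tested. Over all members and alternatives, 721 of 773 values kept sign and side of the threshold.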

Other observations

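Several members stood at other levels in siNC-transfected than in untransfected EpRas cells. The 2 tables were normalized separately, so transfection, preparation and scaling cannot be told apart and no test was made. Elf3 was at 7.88 and 6.51 FPKM in untransfected EpRas cells and at 18.1 FPKM with siNC, beside 18.0 and 19.6 FPKM in EpH4 cells. The TGF-β-treated EpRas cells had 3.54 and 2.79 FPKM, and those with siNC 11.7. Ehf was at 0 and 0.0359 FPKM in untransfected EpRas cells and at 0.225 FPKM with siNC, beside 0.285 and 0.300 FPKM in EpH4 cells. Etv6 was at 4.20 and 3.75 FPKM and at 6.80 FPKM with siNC, and Etv3 at 2.95 and 2.49 FPKM and at 4.69 FPKM with siNC. The untreated knockdown libraries were also above untransfected EpRas cells for Elf3 (11.1 and 12.0 FPKM), Etv6 (4.82 and 4.83) and Etv3 (4.19 and 3.43). Ehf was at 0.0474 and 0 FPKM in them. Etv4 was at 62.2 to 64.8 FPKM in untransfected EpRas cells and at 57.4 FPKM with siNC.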
